A study of Mus musculus with 4 samples.

Results

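The genes described here are 10 mouse genes whose products build the light-sensing outer segment of rods and cones or the extracellular matrix that surrounds it: Rbp3, Impg1, Impg2, Cdhr1, Prom1, Prph2, Rom1, Fscn2, Rp1 and Rp1l1. They were chosen by name, and each was taken from the array feature (probe set) annotated with that 1 gene symbol. All 10 were found, of 18920 genes with such a feature, and each had 1 feature. Retinal cells of BAC-Crx-EGFP mice on a 129Sv/Ev background were sorted at E17.5, late in embryonic development, and RNA was measured in 2 EGFP-positive and 2 EGFP-negative samples, with 1 array each. In these mice a bacterial artificial chromosome places the enhanced green fluorescent protein under the regulatory sequences of Crx, a homeobox gene expressed in developing and mature photoreceptors. The negative cells came from the same transgenic retinas, so they are the retinal cells in which the reporter was not detected and not cells of wild-type mice. The labels do not say how many animals were pooled or whether the replicates were separate sorts, so the spread behind the p-values is that between these samples and could be technical. The study compared the fractions to ask what Crx does in developing cone precursors.

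As background, the outer segment is a modified cilium packed with stacked membrane discs, which in the mouse is built after birth. Discs form at the base of the segment, their curved rims are shaped by tetraspanin proteins, and microtubules of the axoneme run along them. Around the segments lies the interphotoreceptor matrix, which holds proteoglycans and a protein that carries retinoids between photoreceptors and the pigment epithelium.

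In the EGFP-positive cells 3 of the 10 genes were higher than in the EGFP-negative cells: Rbp3 and Impg2 of the matrix and Cdhr1 of the disc base, by 20.7-fold, 18.7-fold and 12.5-fold. A further 5 genes, Rp1, Prom1, Rp1l1, Rom1 and Prph2, had higher values on both positive arrays than on both negative arrays but did not pass the test, with geometric means 1.87 to 3.81 times those of the negative fraction. Impg1 and Fscn2 read at nearly the same intensity in both fractions. Across all 22431 features 0.82% were called higher and 0.143% lower, 0.963% in all, against 3 and 0 of the 10 genes. Both positive arrays lay above both negative arrays in 22.3% of features and below them in 25.3%, against 8 and 0 of the 10 genes. Calls are an adjusted p under 0.05 from limma, a linear model with a variance estimate shared over features, with Benjamini-Hochberg adjustment over all features. The count of 3 changed when single arrays were left out.

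The sorted fractions matched their labels in the genes that mark photoreceptor precursors. All 4 markers, Crx, Otx2, Neurod1 and Prdm1, were called higher in the positive fraction, and Crx read 3628.7 and 4758.8 on the positive and 292.2 and 370.1 on the negative arrays. Of 9 progenitor markers 8 had lower means in the positive fraction, and Sox2 was the 1 called lower. Their summed intensity was 20329.1 and 15993.0 in the positive replicates, against 30352.4 and 31877.3 in the negative replicates. All 9 cell cycle markers had lower means in the positive fraction without any call (unadjusted p under 0.05 for 9 of 9), with sums of 14391.6 and 7369.3 in positive and 25769.9 and 19918.0 in negative replicates. Of 10 amacrine and horizontal cell markers, Tfap2a and Tfap2b were called higher, 10 of 10 had a positive difference and 8 an unadjusted p under 0.05, with sums of 5911.5 and 8014.3 in positive and 4042.5 and 3927.6 in negative replicates. The log2 differences of Tfap2a and Tfap2b were 1.12 and 1.06, and 0.97 and 0.94 without positive replicate 2. None of the 9 ganglion cell, 8 bipolar, 10 pigment epithelium, 7 endothelium, 7 microglia or 8 lens markers was called, and 2 bipolar, 2 pigment epithelium and 1 microglia marker were higher at an unadjusted p under 0.05. Of all 22431 features 2094 were higher and 2204 lower at an unadjusted p under 0.05. The marker lists were not set against these shares by a test. The part of these cell types in the results for the 10 genes was not tested. In sorted bulk samples fewer cells with a transcript and less of it per cell cannot be told apart.

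The sequence before the transcription start is shown for the 3 called genes and for Impg1, the relative of Impg2 whose fractions overlapped. The RefSeq promoter table (build GRCm38.p6) held 8 of the 10 genes, in 9 windows because Prom1 has 2 starts. The windows printed are the 250 bases before the start, at chr14:33953753-33954002 on the plus strand for Rbp3, chr16:56204063-56204312 on the plus strand for Impg2, chr14:37098348-37098597 on the minus strand for Cdhr1 and chr9:80465439-80465688 on the minus strand for Impg1. Each is written 5′ to 3′ on the strand of its gene. Capitals mark TAATCC or its reverse complement GGATTA, the core site of Crx and Otx2, and the E-box CANNTG of basic helix-loop-helix factors such as Neurod1. Overlapping E-boxes appear as 1 run of capitals.

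Rbp3: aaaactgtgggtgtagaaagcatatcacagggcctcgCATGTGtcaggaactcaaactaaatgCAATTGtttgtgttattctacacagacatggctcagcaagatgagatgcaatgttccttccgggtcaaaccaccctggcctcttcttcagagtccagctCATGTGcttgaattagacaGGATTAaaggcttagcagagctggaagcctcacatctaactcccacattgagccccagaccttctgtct

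Impg2: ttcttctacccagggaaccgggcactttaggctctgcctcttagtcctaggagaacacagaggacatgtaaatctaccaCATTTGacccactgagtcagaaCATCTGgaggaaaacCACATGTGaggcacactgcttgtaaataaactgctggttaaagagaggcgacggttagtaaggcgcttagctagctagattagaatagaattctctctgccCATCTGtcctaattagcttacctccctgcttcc

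Cdhr1: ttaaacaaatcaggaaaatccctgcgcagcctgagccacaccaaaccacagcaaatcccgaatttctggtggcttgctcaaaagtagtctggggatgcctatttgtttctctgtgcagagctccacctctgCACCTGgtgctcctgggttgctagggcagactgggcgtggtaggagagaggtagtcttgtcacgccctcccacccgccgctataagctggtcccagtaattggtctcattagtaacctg

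Impg1: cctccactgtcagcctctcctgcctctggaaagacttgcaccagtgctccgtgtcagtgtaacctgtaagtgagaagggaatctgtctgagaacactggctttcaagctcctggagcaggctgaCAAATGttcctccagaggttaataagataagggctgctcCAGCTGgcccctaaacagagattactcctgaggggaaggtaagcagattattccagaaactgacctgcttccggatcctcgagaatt

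The window of Rbp3 held 1 Crx-type core, on the strand opposite to the gene, beginning 69 bases before the start, and 3 E-boxes. It was the 1 gene of 8 with that core in the window, and 6.25% of all 32851 promoter windows of the same length held it. E-boxes stood in the windows of 5 of the 8 genes, with 5 in Impg2, 2 in Impg1 and 1 in Cdhr1, and in 66.2% of all windows. Neither the windows of Prph2, Rom1 and Fscn2 nor the second window of Prom1 held either motif, and the first window of Prom1 held 1 E-box. Impg2 and Cdhr1, with differences near that of Rbp3, had no TAATCC in these letters, and neither had Impg1, whose difference was near 0. A match is a string in a sequence and not an observed binding site.

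Rbp3 encodes the interphotoreceptor retinoid-binding protein, the soluble carrier of retinoids in the matrix. Its feature (probe set 10414034) read 4673.3 and 3301.2 in the positive replicates, against 204.7 and 176.0 in the negative replicates. The fractions did not overlap: the lower positive array was 16.1 times the higher negative array. As log2 intensity Rbp3 averaged 11.94 ± 0.35 in positive and 7.57 ± 0.15 in negative samples (SD, n = 2 each), a log2 difference of 4.37 ± 0.19 (SE, limma adjusted p = 0.00576). It ranked 1 among all 22431 features by the size of a positive difference.

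Impg2 encodes a hyaluronan-binding proteoglycan of the matrix that is anchored in the photoreceptor membrane. It read 1531.3 and 2260.1 in the positive replicates, against 87.3 and 113.6 in the negative replicates, and ranked 2. Every positive array was at least 13.5 times every negative array. The log2 difference was 4.22 ± 0.23 (SE, limma adjusted p = 0.00655), and its 95% interval, 3.64 to 4.81, overlapped that of Rbp3, 3.88 to 4.86.

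Impg1 encodes the related secreted proteoglycan. It read 48.8 and 54.8 in the positive replicates, against 52.9 and 48.5 in the negative replicates, so the fractions overlapped. The log2 difference was 0.03 ± 0.12 (SE, limma adjusted p = 0.947), with a 95% interval of -0.26 to 0.32, or 0.833-fold to 1.25-fold. Its mean over positive and negative arrays together lay below the 25th percentile of all features, 107.6, the level used as a filter on low values. The means of the other 9 genes lay above it. In the negative fraction alone, Rp1, at 63.7 and 67.3, and negative replicate 1 of Impg2, at 87.3, also lay below that level. The ratios of Rp1 and Impg2 therefore rest on low negative values. The deposited values carry no detection call.

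Among the products of the disc base, Cdhr1 passed the test and Prom1 did not. Cdhr1 encodes a photoreceptor cadherin found where new discs form, and it read 1268.9 and 2250.5 in the positive replicates, against 133.1 and 138.4 in the negative replicates. The lower positive array was 9.17 times the higher negative array. The log2 difference was 3.64 ± 0.27 (SE, limma adjusted p = 0.0133), at rank 6 of all features.

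Prom1 encodes prominin-1, a membrane glycoprotein of evaginating membranes that acts with the Cdhr1 protein at the disc base and is also known from neural progenitors. It read 588.6 and 828.9 in the positive replicates, against 294.1 and 313.8 in the negative replicates. The fractions did not overlap, and the log2 difference of 1.20 ± 0.18 had an adjusted p of 0.0662 by limma, with a 95% interval of 0.74 to 1.66.

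**Figure D1:**
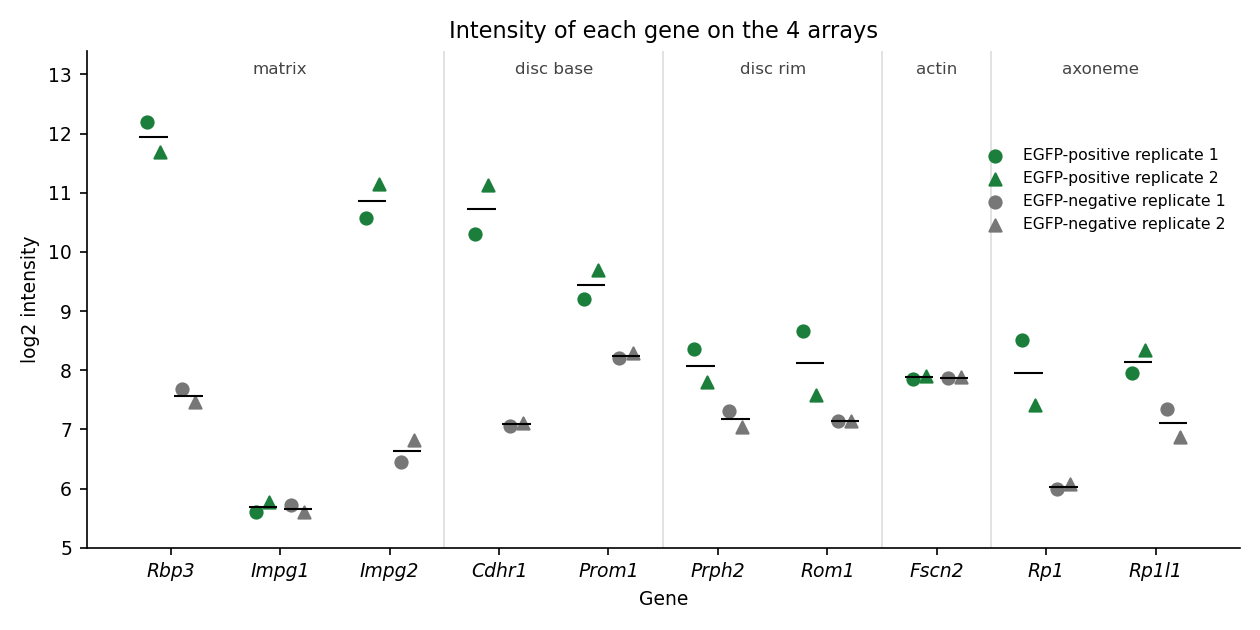
Log2 intensity of the 10 genes on the y axis, by gene on the x axis and grouped by role, with EGFP-positive arrays (green) left of EGFP-negative arrays (grey). Circles are replicate 1, triangles replicate 2 and lines the mean of 2 arrays. Rbp3, Impg2 and Cdhr1 are set furthest apart, and the symbols of Impg1 and Fscn2 lie side by side.

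The disc rim genes Prph2 and Rom1 encode tetraspanins that assemble with each other along the disc edge. Prph2 read 327.9 and 223.1 in the positive replicates, against 158.1 and 131.7 in the negative replicates. Rom1 read 406.4 and 191.8 in the positive replicates, against 141.0 and 141.7 in the negative replicates. In each gene positive replicate 2 lay nearer to the negative arrays than positive replicate 1 did. The log2 differences were 0.91 ± 0.21 for Prph2 (SE, limma adjusted p = 0.116) and 0.98 ± 0.35 for Rom1 (adjusted p = 0.220), so neither passed the test. Without positive replicate 2 Rom1 differed by 1.52, and without positive replicate 1 by 0.44. A fit that keeps 1 positive array cannot measure the spread between positive replicates, so no p-value is given.

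Fscn2 encodes an actin-bundling fascin of photoreceptors and hair cells. It read 231.8 and 239.7 in the positive replicates, against 232.7 and 237.1 in the negative replicates. The values overlapped, and the log2 difference was 0.01 ± 0.10 (SE, limma adjusted p = 0.990) with a 95% interval of -0.24 to 0.25, or 0.845-fold to 1.19-fold. The SD on the log2 scale was 0.03 in positive samples, the smallest of the 10 genes there, and 0.02 in negative samples.

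Rp1 and Rp1l1 encode related microtubule-binding proteins with doublecortin domains, placed along the axoneme. Rp1 read 363.4 and 171.2 in the positive replicates, against 63.7 and 67.3 in the negative replicates. The negative values were close together, whereas the positive replicates stood apart by 1.09 on the log2 scale in favour of replicate 1 (replicate 2 minus replicate 1, -1.09). The log2 difference was 1.93 ± 0.35 (SE, limma adjusted p = 0.0832), with a 95% interval of 1.05 to 2.81. Rp1l1 read 247.8 and 324.9 in the positive replicates, against 161.9 and 116.8 in the negative replicates. Its log2 difference of 1.05 ± 0.21 had an adjusted p of 0.0912 by limma, and the fractions did not overlap.

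In order of size, each gene was set against the next. The intervals of Rbp3, Impg2 and Cdhr1 overlapped from neighbour to neighbour, and that of Cdhr1, 2.95 to 4.33, lay above that of Rp1. From Rp1 through Prom1, Rp1l1, Rom1 and Prph2 each interval overlapped the next. The interval of Prph2, 0.37 to 1.44, lay above that of Impg1, but the wider interval of Rom1, 0.10 to 1.86, overlapped those of Impg1 and Fscn2, which also overlapped each other. Differences between genes were not tested. The median log2 difference of the 10 genes was 1.12, beside -0.01 for all features, and 6 of them differed by at least 2-fold upward, as did 1.19% of all features.

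**Figure D2:**
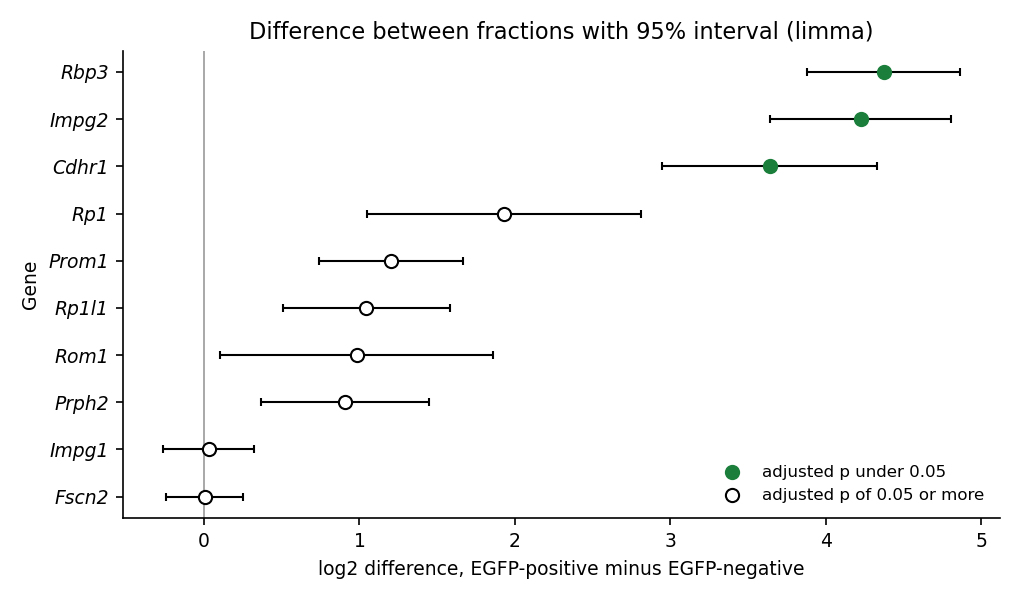
Log2 difference of EGFP-positive minus EGFP-negative samples on the x axis for each of the 10 genes on the y axis, in order of size. Bars are 95% intervals from limma with 2 arrays per fraction, and filled symbols have an adjusted p under 0.05. Filled symbols are Rbp3, Impg2 and Cdhr1, at 3.64 to 4.37, and the intervals of Impg1 and Fscn2 include 0.

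The calls rested on few arrays. Leaving out 1 array leaves 1 in a fraction. The error of such a fit comes from the other fraction and the variance shared over features. It does not measure the spread of the fraction left with 1 array, so only sizes are given. Calls changed with the array left out, in the 10 genes, Rbp3, Impg2 and Cdhr1 among them, and over all features. With all 4 arrays 8 of the 10 genes were higher at an unadjusted p under 0.05 by limma, as were 2094 of all 22431 features. Without negative replicate 1, Rbp3, Impg2 and Cdhr1 differed by 4.48, 4.03 and 3.61, and without negative replicate 2 by 4.26, 4.41 and 3.67. For these 3 genes the sizes over all 4 omissions ranged from 4.12 to 4.62 for Rbp3, 3.94 to 4.50 for Impg2 and 3.22 to 4.05 for Cdhr1.

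The positive replicates differed from each other more in these genes than in most features, and not in 1 direction. The median absolute gap between positive replicates was 0.53 on the log2 scale over the 10 genes and 0.14 over all features, and 9 of the 10 exceeded 0.14. Between negative replicates it was 0.11 over the 10 genes and 0.13 over all features. Rbp3, Prph2, Rom1 and Rp1 were higher in positive replicate 1, by gaps (replicate 2 minus replicate 1) of -0.50, -0.56, -1.08 and -1.09. Impg2, Cdhr1, Prom1 and Rp1l1 were higher in positive replicate 2, by 0.56, 0.83, 0.49 and 0.39. Thus the 8 genes whose fractions did not overlap were divided 4 and 4, and over all features 54.2% were higher in positive replicate 2. With 1 array on each side a gap between replicates has no test.

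**Figure D3:**
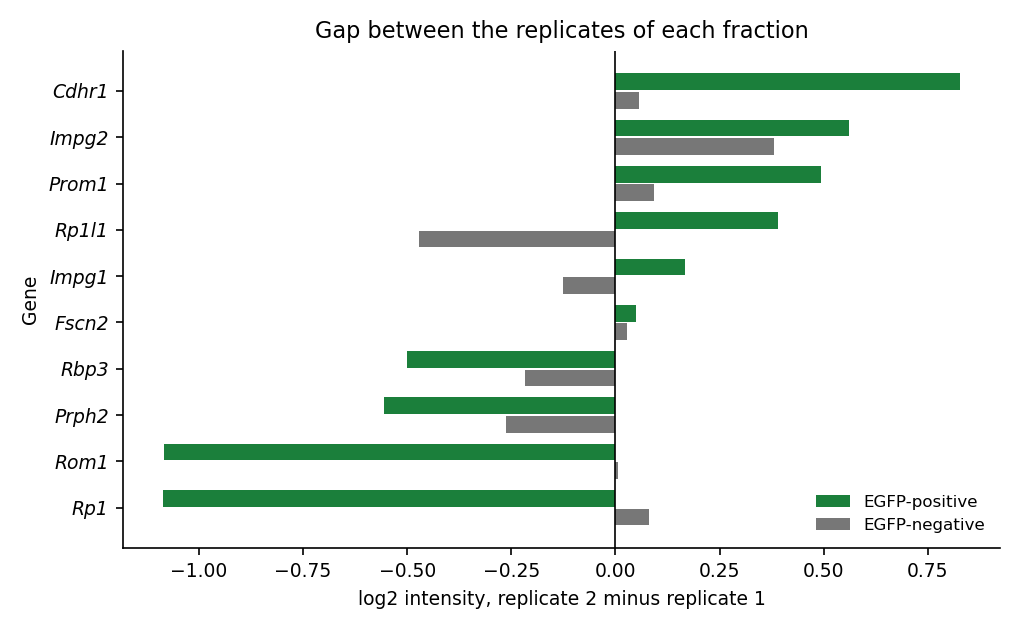
Log2 intensity of replicate 2 minus replicate 1 on the x axis, for each of the 10 genes on the y axis, with EGFP-positive samples (green) above EGFP-negative samples (grey). Rp1 and Rom1 have positive-fraction gaps of -1.09 and -1.08 with negative-fraction gaps of 0.08 and 0.01, and Cdhr1 has gaps of 0.83 and 0.06.

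Other genes also differed between the positive replicates. The cell cycle markers were lower in positive replicate 2 than in positive replicate 1 in 9 of 9 cases, with a median gap of -0.97, and the progenitor markers in 8 of 9, with a median of -0.71. The 4 photoreceptor precursor markers were higher there, with a median of 0.36, and ganglion cell markers in 8 of 9 cases, with a median of 0.70. Between negative replicates the median gaps were -0.40 for cell cycle, -0.07 for progenitor, -0.03 for photoreceptor precursor and 1.14 for ganglion cell markers. The shifts of cell cycle and ganglion cell markers were thus not confined to the positive fraction. Opn1sw, the short-wavelength cone opsin gene, read 671.0 and 262.5 in the positive replicates, against 111.5 and 124.5 in the negative replicates. It was not called (limma adjusted p = 0.116) and had the same order of positive replicates as Rp1 and Rom1. Cngb3, a subunit of the cone channel, read 1123.2 and 2700.9 in the positive replicates, against 89.0 and 118.6 in the negative replicates, the order of Cdhr1 and Impg2. Both belong to a list of 15 other outer segment membrane genes. Of these 9 were higher and 6 lower in positive replicate 2, with a median gap of 0.02. The part of any of these genes and cell types in the gaps was not tested.

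The genes most like Rbp3 over the 4 arrays included Impg2 and Cdhr1. By Euclidean distance between log2 values centred on each gene's own mean, the 5 nearest of 18919 genes were Impg2 (0.88), Egflam (1.01), Crx (1.03), Mak (1.18) and Cdhr1 (1.21). Over 4 arrays such a distance depends mainly on the size of the difference between the fractions.

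Of 10 other matrix genes, not all of them known from the interphotoreceptor matrix, 1 was called higher and 0 lower. The shares of all features were 0.82% and 0.143%. The list had 5 positive and 5 negative differences and a median of -0.04. The called gene was Egflam, whose product pikachurin lies in the synaptic cleft of photoreceptors (2021.9 and 1983.8 in positive, 170.5 and 193.3 in negative samples, log2 difference 3.46 ± 0.11, limma adjusted p = 0.00576). Has2, a hyaluronan synthase gene, was higher at an unadjusted p under 0.05 and was named after its values were seen (238.7 and 251.3 in positive, 185.7 and 162.1 in negative samples, adjusted p = 0.114). The tissue inhibitor of metalloproteinases gene Timp3 and the matrix gene Efemp1, also named after their values were seen, were lower at an unadjusted p under 0.05. Timp3 differed by -0.73 ± 0.24 (adjusted p = 0.192) and Efemp1 by -0.93 ± 0.29 (adjusted p = 0.179). With single arrays left out the difference ranged from 3.37 to 3.55 for Egflam, from -1.08 to -0.38 for Timp3 and from -1.32 to -0.54 for Efemp1.

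Of 15 other genes of the outer segment membrane, 1 was called higher and 0 lower, with a median log2 difference of 0.12. Cngb3 was the called gene (4.08 ± 0.42, limma adjusted p = 0.0293). In 8 of the 15 both positive arrays lay above both negative arrays, against 22.3% of all features. The share of all features called higher was 0.82%. With single arrays left out the difference of Cngb3 ranged from 3.45 to 4.72.

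Genes of the axoneme, the connecting cilium and segment formation gave the largest count of the 4 lists of other genes, with 5 of 16 called higher and 0 lower and a median of 0.28. Mak, a kinase of the photoreceptor cilium, read 1125.7 and 1674.0 in positive and 119.2 and 125.0 in negative samples (log2 difference 3.49 ± 0.20, limma adjusted p = 0.00753). Rpgrip1, a connecting cilium protein, differed by 3.06 ± 0.23 (adjusted p = 0.0136). Unc119, which traffics lipid-modified proteins, was 3.99-fold higher (SE 0.14 on the log2 scale, adjusted p = 0.0111). Tulp1, needed for transport to the outer segment, differed by 1.38 ± 0.12 (adjusted p = 0.0184). The fifth was Rd3, a regulator of retinal guanylate cyclase, at 0.97 ± 0.13 (adjusted p = 0.0491), named after its values were seen. The share of all features called higher was 0.82%. With a pseudocount of 16 the count was 4 (Rd3 at limma adjusted p = 0.0549). With single arrays left out Rd3 ranged from 0.85 to 1.09 and Tulp1 from 1.29 to 1.47.

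Paralogues of the 10 genes that are known mainly outside the outer segment were measured for comparison. None of 13 was called by limma, and the median log2 difference was 0.09. At an unadjusted p under 0.05, 1 was higher, as were 2094 of all 22431 features. Largest were the doublecortin gene Dcx of young neurons, with 636.0 and 1645.0 in positive and 362.7 and 774.1 in negative samples (0.95 ± 0.55, adjusted p = 0.446), and the fascin gene Fscn1, with 4290.8 and 5494.4 in positive and 2860.9 and 3381.6 in negative samples (0.64 ± 0.16, adjusted p = 0.132). Prom2, the paralogue of Prom1, differed by -0.17 ± 0.12 (adjusted p = 0.547) and was named after its values were seen. The 4 cadherin-related genes Cdhr2 to Cdhr5 had differences from -0.04 to 0.14, beside 3.64 for Cdhr1. Their readings were low, from 77.1 to 83.3 for Cdhr2, the lowest, to 149.5 to 170.8 for Cdhr4, the highest. Without a detection call, differences near 0 at such readings cannot tell equal expression from no signal.

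**Figure D4:**
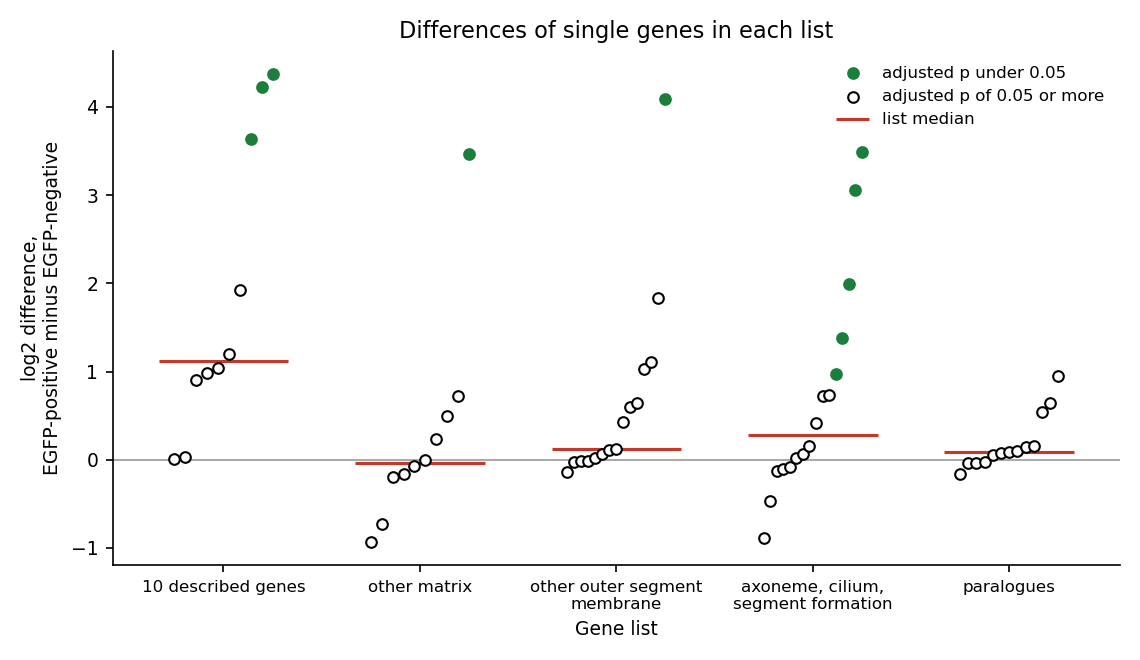
Log2 difference of EGFP-positive minus EGFP-negative samples on the y axis for single genes of 5 lists on the x axis. Filled symbols have an adjusted p under 0.05 and red lines are list medians. The 10 described genes have a median of 1.12, against -0.04 for other matrix genes and 0.12 for other outer segment membrane genes. Medians are 0.28 for axoneme, connecting cilium and segment formation genes and 0.09 for paralogues.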

How the data were processed

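Expression was measured on Affymetrix whole-transcript arrays, 1 per sample, from 100 ng of total RNA per the labels' protocols. The deposited values are normalised intensity values, for which the submitters' processing notes name RMA and build mm8. The version, summary level and filters were not given in the sources used here. A linear scale was inferred from the range, 18.9 to 36625.2, with array medians of 218.4 to 222.9, and log2 was taken without a pseudocount. The platform annotation gave 1 symbol for 20176 features, several for 412 and none for 1843. Where a gene had several features, the one with the highest mean was used.

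Differences over all 22431 features came from limma 3.58.1 with R 4.3.3 (EGFP-positive minus EGFP-negative, no replicate term, two-sided, Benjamini-Hochberg over all features, threshold 0.05). Errors of differences are moderated standard errors with 5.26 degrees of freedom, and precision is limited by the number of arrays. The fit was tested on simulated data. The genes, lists and tests were chosen with earlier results of these data known. From each list, up to 4 called genes, or else the 2 with the largest difference, are named. Opn1sw, Cdhr2 to Cdhr5 and the genes marked as named after their values were seen stand outside this rule. Spearman's correlation over features was 0.985 between positive and 0.987 between negative replicates, and 0.954 to 0.980 across fractions. No protein sequences were used here. Alternatives comprised a replicate block, omission of each array, another centring, quantile normalisation, a filter, a pseudocount of 16, another variance model and the mean of a gene's features.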

Additional observations from a re-analysis of the deposited data

How the results depend on the processing

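Median centring, quantile normalisation, a filter at the 25th percentile (which removed Impg1), a trend with robust variance, a pseudocount of 16 and the mean of a gene's features each left 3 of the 10 genes called higher and 0 lower, with Rbp3, Impg2 and Cdhr1 called. The last of these moved the count of all features called lower to 51, against 32. With the pseudocount 4 genes of the axoneme, connecting cilium and segment formation list were called, Rd3 being lost. No gene of the 10 has a second feature, so that choice altered the fit and not their values. The filter used the mean over positive and negative arrays together. It therefore cannot show how low values in the negative fraction alone bear on the calls.

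The replicate numbers are shared by name. The gaps of replicate 2 minus 1 correlated between fractions at 0.48 over features, and 2 pairs are too few to establish pairing. With a replicate block 7 of the 10 genes were called higher, Prom1 (1.20), Prph2 (0.91), Rp1 (1.93) and Rp1l1 (1.05) being added at adjusted p = 0.00770, 0.0108, 0.0123 and 0.0282. In the other lists the block called 3 matrix genes higher and 2 lower, and 5 outer segment membrane genes higher. Of the axoneme, connecting cilium and segment formation genes it called 8 higher and 1 lower, and of the paralogues 3 higher. Over all features it called 1377 higher and 1500 lower.

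Without 1 array the count of the 10 called higher changed, and the calls of Rbp3, Impg2 and Cdhr1 did not hold under every omission. Only sizes are given because 1 array is left in a fraction. Ranges of the log2 difference were 4.12 to 4.62 for Rbp3, 3.94 to 4.50 for Impg2, 3.22 to 4.05 for Cdhr1, 0.95 to 1.45 for Prom1, 0.63 to 1.18 for Prph2, 0.44 to 1.52 for Rom1, 1.39 to 2.47 for Rp1 and 0.81 to 1.28 for Rp1l1. Impg1 turned to -0.054 without positive replicate 2 and -0.033 without negative replicate 2 (range -0.054 to 0.114), and Fscn2 to -0.019 without positive replicate 2 and -0.0084 without negative replicate 1 (range -0.019 to 0.029). Called higher were 0 to 1 other matrix genes, 0 to 5 outer segment membrane genes, 0 to 6 axoneme and cilium genes and 0 to 1 paralogues, and lower 0 to 1 matrix and 0 to 1 axoneme and cilium genes. Over all features 0 to 667 were called higher and 0 to 762 lower. The causes were not tested. With 2 arrays per fraction the smallest difference called in any feature was 0.75 in size.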
